A study of Mus musculus with 9 samples.

Results

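The developmental pluripotency-associated (Dppa) genes Dppa2, Dppa3, Dppa4 and Dppa5a were followed through mouse ES cells with and without Kif2a. They were taken by their gene names, 4 of the 15526 rows of the table. These 4 members had been picked because their levels in these same libraries differed between groups in different directions. Their values are therefore given as a description, without a test, and support no further statement.

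The libraries were poly-A RNA-seq of untreated ES cells of a 129 background, in 3 groups of 3 libraries. KO2 and KO1 were Kif2a knockout lines that had been edited independently, and WT cells were unedited. Kif2a encodes a kinesin-13 motor that takes tubulin off microtubule ends. Each knockout group is a single edited line, so a difference between a line and WT cells cannot be told apart from a difference of that line unrelated to Kif2a. The labels do not say whether the 3 libraries of each group were grown apart. The p-values given for other genes therefore measure only the spread between these libraries, which may be technical.

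The Dppa genes share a name because they were found together through an expression pattern like that of Pou5f1, and they do not form 1 protein family. Dppa2 and Dppa4 are SAP-domain proteins that bind chromatin as a pair, and in mouse ES cells they are needed for Dux and the two-cell genes and for keeping some promoters free of DNA methylation. Dppa3 (Stella, PGC7) is a maternal and germline factor that binds Uhrf1 and holds back maintenance DNA methylation. Dppa5a (Esg1) is an RNA-binding protein with a KH-like domain that marks undifferentiated ES cells.

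All 4 members have near copies elsewhere in the mouse genome, so a single read of 50 bases cannot always be placed. The reads were paired, while the shares below count single windows. They therefore do not give the share of read pairs that could not be placed. Of the 50-base windows of the reference transcript, 29.1% for Dppa2, 17.7% for Dppa3, 35.9% for Dppa4 and 38.6% for Dppa5a also occur in a transcript of another annotated gene. Among those other genes the table held a row only for Pigp, which shares windows with Dppa5a. The 354 coding bases of Dppa5a were aligned to the transcripts of Dppa5b and Dppa5c, and matched each at 96.97% of 297 aligned bases. The 450 coding bases of Dppa3 matched the transcript of the pseudogene Dppa3-ps at 98.21% of 448 aligned bases. Which copy such a read was counted for is not given in the sources used here, so the level of each member is uncertain to that extent.

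To show how close these copies are, the first 60 coding bases of Dppa5a are given with the aligned bases of its 2 copies. For Dppa3, 60 early coding bases are given with the aligned bases of its pseudogene. They were read from the GENCODE transcripts of GRCm38, on the strand of the gene. Capitals mark the bases at which Dppa5a differs from its copies, 2 in each pair, and the Dppa3 pair has 0 differences in this stretch. The stretches lie at chr9:78368040-78368099 (minus strand) for Dppa5a, chr9:78245550-78245609 (plus) for Dppa5b, chr9:78271998-78272057 (plus) for Dppa5c, chr6:122626525-122626584 (plus) for Dppa3 and chrX:37626038-37626097 (minus) for Dppa3-ps.
Dppa5a: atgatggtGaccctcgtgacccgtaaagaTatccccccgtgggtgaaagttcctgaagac
Dppa5b: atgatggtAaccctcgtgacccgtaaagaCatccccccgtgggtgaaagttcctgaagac
Dppa5c: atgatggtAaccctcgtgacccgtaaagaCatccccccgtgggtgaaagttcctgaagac
Dppa3: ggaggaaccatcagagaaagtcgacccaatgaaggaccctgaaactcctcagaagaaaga
Dppa3-ps: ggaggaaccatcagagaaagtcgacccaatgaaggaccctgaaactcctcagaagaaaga

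The 9 libraries held 14960295 to 18814858 reads on genes. Values are normalised read counts, the authors' scaled counts per gene, in which 1 read was worth 0.0957 to 0.118. Kif2a averaged 1.17 ± 0.528 in KO2 cells, 0.999 ± 0.140 in KO1 cells and 114 ± 6.49 in WT cells (SD, n = 3 each), so the libraries follow their labels. Its log2 difference was -5.75 ± 0.18 in KO2 against WT (± SE; limma, adjusted p = 4e-32) and -5.85 ± 0.18 in KO1 against WT (limma, adjusted p = 1.7e-32). The summed level of 24 pluripotency and ES cell genes was 16848 to 17215 in KO2 libraries, 17025 to 17382 in KO1 libraries and 16845 to 17296 in WT libraries, so the ES cell label holds in every group.

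Dppa5a was by far the most abundant member. Per kb of exon, the level in WT cells was 4467 ± 179 normalised counts for Dppa5a, 146 ± 8.67 for Dppa3, 69.5 ± 0.941 for Dppa4 and 40.3 ± 3.45 for Dppa2 (SD, n = 3). On that scale Dppa5a ranked 3 among 10125 genes with a known exonic length, Dppa3 ranked 543, Dppa4 ranked 1321 and Dppa2 ranked 2437. The depth follows the same order, with 22772 to 33553 reads per library for Dppa5a, 1060 to 1841 for Dppa3, 928 to 1241 for Dppa4 and 594 to 972 for Dppa2.

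**Figure D1:**
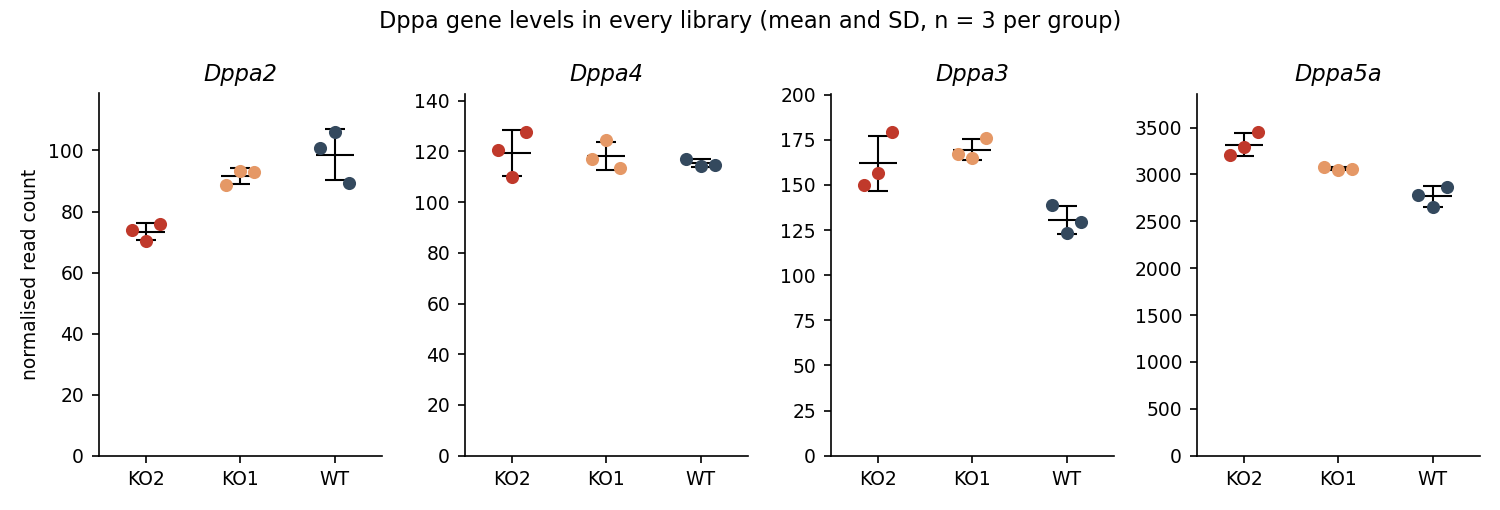
Normalised read count (vertical axes, each starting at 0) of Dppa2, Dppa4, Dppa3 and Dppa5a in KO2, KO1 and WT cells. Points are the 3 libraries of a group, the wide line is their mean and the bar is the SD; for Dppa2 the KO2 libraries sit between 70.3 and 76.0, below every KO1 and WT library.

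Dppa2 was the member that was lower in KO2 cells. Its gene (ENSMUSG00000072419) lies on the plus strand at chr16:48303908-48319723. Dppa2 had normalised read counts of 74.1, 70.3 and 76.0 in KO2 libraries, 88.7, 93.4 and 93.0 in KO1 libraries, and 100.7, 106 and 89.4 in WT libraries. Every KO2 library lay below every library of the other groups, while KO1 and WT libraries overlapped. The KO2 mean of 73.4 ± 2.90 was 74.4% of the WT mean of 98.7 ± 8.44 and 80.1% of the KO1 mean of 91.7 ± 2.61 (SD, n = 3 each). The log2 difference was -0.42 ± 0.07 in KO2 against WT, -0.10 ± 0.07 in KO1 against WT and -0.32 ± 0.07 in KO2 against KO1 (± SE), and 95 of the 10238 tested genes had a lower value in KO2 against WT. In bulk RNA, fewer cells with the transcript and less of it per cell cannot be told apart.

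Dppa4, the chromatin partner of Dppa2, differed least between the 3 groups. Its gene (ENSMUSG00000058550) lies on the same strand at chr16:48283733-48294237, and the starts of the 2 genes are 20.175 kb apart. Dppa4 had 121, 109.8 and 128 normalised read counts in KO2 libraries, 117, 124 and 113 in KO1 libraries, and 117, 114 and 115 in WT libraries. The KO2 and KO1 libraries lay on both sides of the WT libraries. The log2 difference was 0.05 ± 0.06 in KO2 against WT, 0.03 ± 0.06 in KO1 against WT and 0.01 ± 0.06 in KO2 against KO1, each smaller than its SE. Leaving out single libraries turned the sign of all 3 differences of Dppa4, to -0.0035 in KO2 against WT without KO2 replicate 3, to -0.0016 in KO1 against WT without KO1 replicate 2, and to -0.04 in KO2 against KO1 without KO2 replicate 3.

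The balance of the pair was lowest in KO2 cells. The ratio of Dppa2 to Dppa4 counts within a library was 0.616 ± 0.0224 in KO2 cells, 0.776 ± 0.0385 in KO1 cells and 0.855 ± 0.0739 in WT cells (SD, n = 3 each). It ran between 0.595 and 0.640 in KO2 libraries, below the range of 0.751 to 0.820 in KO1 libraries and that of 0.779 to 0.927 in WT libraries. KO1 and WT ranges overlapped. The ratio does not depend on the scaling between libraries, but it rests on the same Dppa2 values.

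Dppa3 was higher in both knockout lines. Its gene (ENSMUSG00000046323) lies on the plus strand at chr6:122626410-122630272. Dppa3 had 149.7, 157 and 179 normalised read counts in KO2 libraries, 167, 165 and 176 in KO1 libraries, and 139, 123 and 129.5 in WT libraries. All 6 knockout libraries lay above all 3 WT libraries, and the lines overlapped each other. The mean was 162 ± 15.4 in KO2 cells and 169.6 ± 5.85 in KO1 cells, against 130.5 ± 7.73 in WT cells (SD, n = 3 each), which is 24.1% above WT in KO2 cells and 29.9% above WT in KO1 cells. The log2 difference was 0.31 ± 0.06 in KO2 against WT, 0.38 ± 0.06 in KO1 against WT and -0.07 ± 0.06 in KO2 against KO1. Of all tested genes, 51 had a higher value in KO1 against WT, and 480 did in KO2 against WT.

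Pooled over the 3 groups, Dppa3 was also the member that varied most between libraries of a group. Its SD between libraries of a group was 0.10 on the log2 scale, larger than in 88.5% of 1275 genes within 1.25-fold of its mean level. In KO2 libraries its coefficient of variation was 9.49%, beside 2.63% from counting alone. In WT libraries Dppa2 had the larger coefficient, 8.56% beside 5.93% for Dppa3. In KO1 libraries Dppa4 had a larger one, 4.70% beside 3.45% for Dppa3. For Dppa3, KO2 replicate 3 was the highest of the 9 libraries, and without that library the difference of KO2 against WT was 0.23.

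Dppa5a was highest in KO2 cells, intermediate in KO1 cells and lowest in WT cells. Its gene (ENSMUSG00000060461) lies on the minus strand at chr9:78367052-78368177. Dppa5a had 3203, 3297 and 3449 normalised read counts in KO2 libraries, 3076, 3047 and 3055 in KO1 libraries, and 2778, 2648 and 2869 in WT libraries. No library of one group overlapped those of another. The mean was 3316 ± 124 in KO2 cells and 3059 ± 14.9 in KO1 cells, against 2765 ± 111 in WT cells (SD, n = 3 each), which is 19.9% above WT in KO2 cells and 10.6% above WT in KO1 cells. The log2 difference was 0.26 ± 0.04 in KO2 against WT, 0.15 ± 0.04 in KO1 against WT and 0.12 ± 0.04 in KO2 against KO1. Under quantile normalisation the differences of Dppa5a from WT were 0.10 in each line and that between the lines was 0, since that method gives the same value to genes of the same rank.

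**Figure D2:**
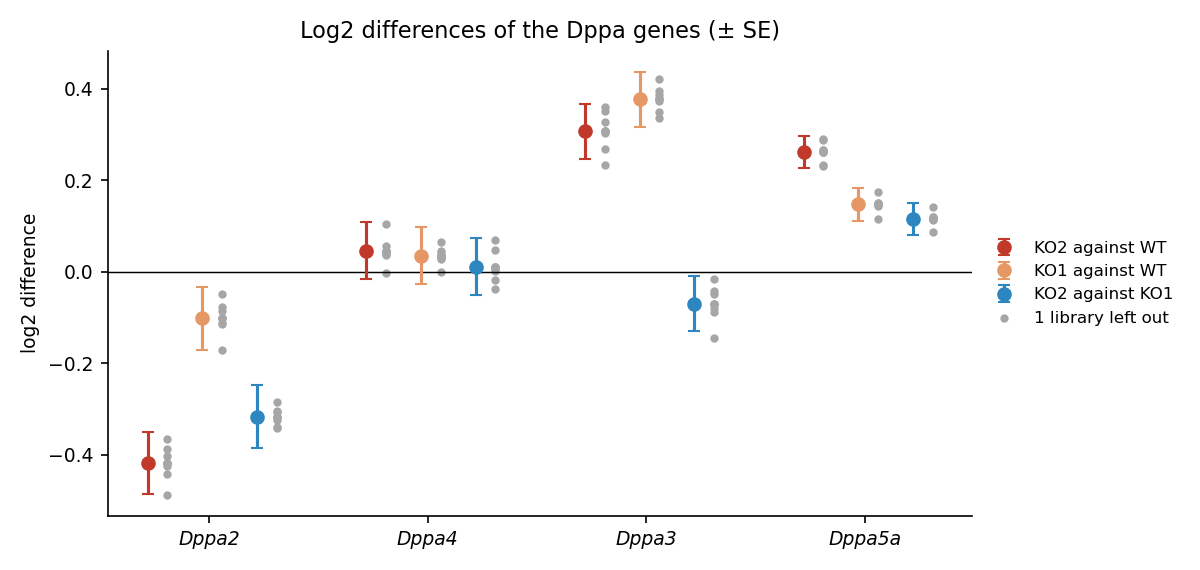
Log2 difference (vertical axis, large points, bars ± SE) of each Dppa gene in KO2 against WT, KO1 against WT and KO2 against KO1, with small grey points for the same difference after leaving out each library in turn. Dppa2 stays below 0 and Dppa3 and Dppa5a above 0 against WT in every such fit, and the values of Dppa4 lie around 0.

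The members can be set side by side by whether the libraries of each comparison overlapped. In KO2 against WT the libraries did not overlap for 3 of 4 members, Dppa2 below and Dppa3 and Dppa5a above, where 32.3% of all tested genes did not overlap (18.7% above and 13.5% below). Dppa3 and Dppa5a, 2 of 4 members, lay above WT in KO1 against WT, where 18.2% of tested genes did not overlap (13% above and 5.2% below). In KO2 against KO1 2 of 4 members did not overlap, Dppa2 below and Dppa5a above, where 27.9% of tested genes did not (12.7% above and 15.1% below). Both comparisons with WT use the same 3 WT libraries, and the members were chosen on these contrasts, so nothing is read from these counts. The median log2 difference of all tested genes was 0.02 in KO2 against WT, 0.02 in KO1 against WT and -0.01 in KO2 against KO1.

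Over the 9 libraries, the patterns of the members can be compared by the root-mean-square distance between their log2 values, each centred on its own mean. The largest distance was that of Dppa2 from Dppa3, at 0.32, followed by Dppa2 from Dppa5a at 0.30. Dppa2 and Dppa4, which work as a pair, were 0.21 apart. The smallest distances were 0.11, for Dppa5a from Dppa4 and for Dppa5a from Dppa3. This distance depends on the size of the differences as well as their direction, and Dppa4 differed little. The median distance from Dppa4 to 4126 other genes was 0.09, smaller than its 0.11 from Dppa5a.

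Among 4126 genes with a mean of at least 100, each member had others with a similar pattern. Nearest to Dppa2 were Ccar1, a coactivator of transcription (distance 0.06), Tfrc, the transferrin receptor (0.07), and Pspc1, a paraspeckle protein (0.07), where the median distance of the candidates was 0.20. Ccar1 averaged 188 ± 1.42 in KO2 cells, 231 ± 5.54 in KO1 cells and 249 ± 7.18 in WT cells (SD, n = 3 each). Nearest to Dppa3 were Lamb1, a laminin chain of the basement membrane (0.07), the folate enzyme Aldh1l1 (0.08) and the cytochrome Cyb5a (0.09). Lamb1 averaged 114 ± 2.81 in KO2 cells, 123 ± 5.61 in KO1 cells and 92.0 ± 8.98 in WT cells. Nearest to Dppa4 were the nucleotide synthesis enzyme Prps1, the RNA-binding ubiquitin ligase Trim71 and the nucleic acid-binding protein Cnbp, each at 0.03. Nearest to Dppa5a were Calu, a calcium-binding protein of the secretory pathway (0.03), Ciao2b, an iron-sulphur assembly factor (0.03), and Tbrg1 (0.04). These genes were chosen for their likeness, and their values are a description.

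Whether the genes beside the members moved with them was asked of 25 genes whose starts lie within 500 kb, 18 of which were tested. In KO2 against WT 2 of the 18 neighbours rose and 2 fell (limma, adjusted p under 0.05), where 18.5% of all tested genes were called (11% higher and 7.51% lower). The KO1 line had 2 that rose and 0 that fell against WT, where 1.06% of all tested genes were called (0.83% higher and 0.234% lower). In that comparison 4 neighbours had an unadjusted p under 0.05, beside 1304 of the 10238 tested genes. Both edgeR and DESeq2 also called 2 neighbours higher and 0 lower there, where they called 69 and 64 of all tested genes higher. In KO2 against KO1 2 rose and 2 fell, where 9.92% of all tested genes were called (4.71% higher and 5.22% lower). The median log2 difference of the 18 neighbours was 0.00 in KO2 against WT and 0.01 in KO1 against WT.

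Around Dppa3 the neighbours did not follow one direction. Gdf3, a growth factor of the TGF-beta family that starts 16.3 kb before Dppa3, had 198.5, 189 and 184 normalised read counts in KO2 libraries, 233, 235 and 227 in KO1 libraries and 224, 235 and 234 in WT libraries. Gdf3 fell in KO2 cells by 0.27 ± 0.05 on the log2 scale (± SE; limma, adjusted p = 5e-05), where Dppa3 was higher, and in KO1 against WT it had 0.01 ± 0.05 (limma, adjusted p = 0.97). Gdf3 also fell by 0.28 ± 0.05 in KO2 against KO1 (limma, adjusted p = 7.4e-05). Slc2a3, a glucose transporter 175 kb past Dppa3, had 4953, 4499 and 4979 in KO2 libraries, 4243, 4152 and 3996 in KO1 libraries and 3708, 3506 and 3619 in WT libraries.

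Slc2a3 was the neighbour that rose in both lines, as Dppa3 was higher in both. Its log2 difference was 0.41 ± 0.04 in KO2 against WT (limma, adjusted p = 3.9e-13), 0.19 ± 0.04 in KO1 against WT (limma, adjusted p = 6e-04) and 0.22 ± 0.04 in KO2 against KO1 (limma, adjusted p = 1.9e-05). Slc2a3 lost its call in KO1 against WT and in KO2 against KO1 with plain moderation in limma, at adjusted p = 0.23 and 0.059. Nanog, a core pluripotency factor that starts 81.1 kb past Dppa3 and so lies between it and Slc2a3, had -0.05 ± 0.04 in KO2 against WT (limma, adjusted p = 0.32) and 0.00 ± 0.04 in KO1 against WT (limma, adjusted p = 0.98).

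The gene nearest to Dppa5a, Ooep, encodes a KH-domain protein of the subcortical maternal complex and starts 10.5 kb away. It averaged 126 ± 2.65 in KO2 cells, 123 ± 4.67 in KO1 cells and 124 ± 10.9 in WT cells (SD, n = 3 each), with limma adjusted p = 0.81 in KO2 against WT and 0.99 in KO1 against WT. On the other side Gsta4, a glutathione transferase, also had no call. Cd109, a GPI-anchored surface protein 247 kb away, rose in KO1 against WT by 0.46 ± 0.08 (limma, adjusted p = 0.00038, and 0.11 with plain moderation), and had -0.06 ± 0.08 in KO2 against WT (limma, adjusted p = 0.65). Elovl5, a fatty acid elongase 451 kb away, rose in KO2 against WT by 0.17 ± 0.06 (limma, adjusted p = 0.03), a call lost in 5 of 21 alternatives, with plain moderation and without WT replicate 1, WT replicate 3, KO2 replicate 2 or KO2 replicate 3. Near Dppa2 and Dppa4, Morc1, a germline gene that acts on transposon silencing, fell by 0.13 ± 0.05 in KO2 against WT (limma, adjusted p = 0.048), and that call was lost in 12 of 21 alternatives, among them the removal of any 1 library except KO2 replicate 3.

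**Figure D3:**
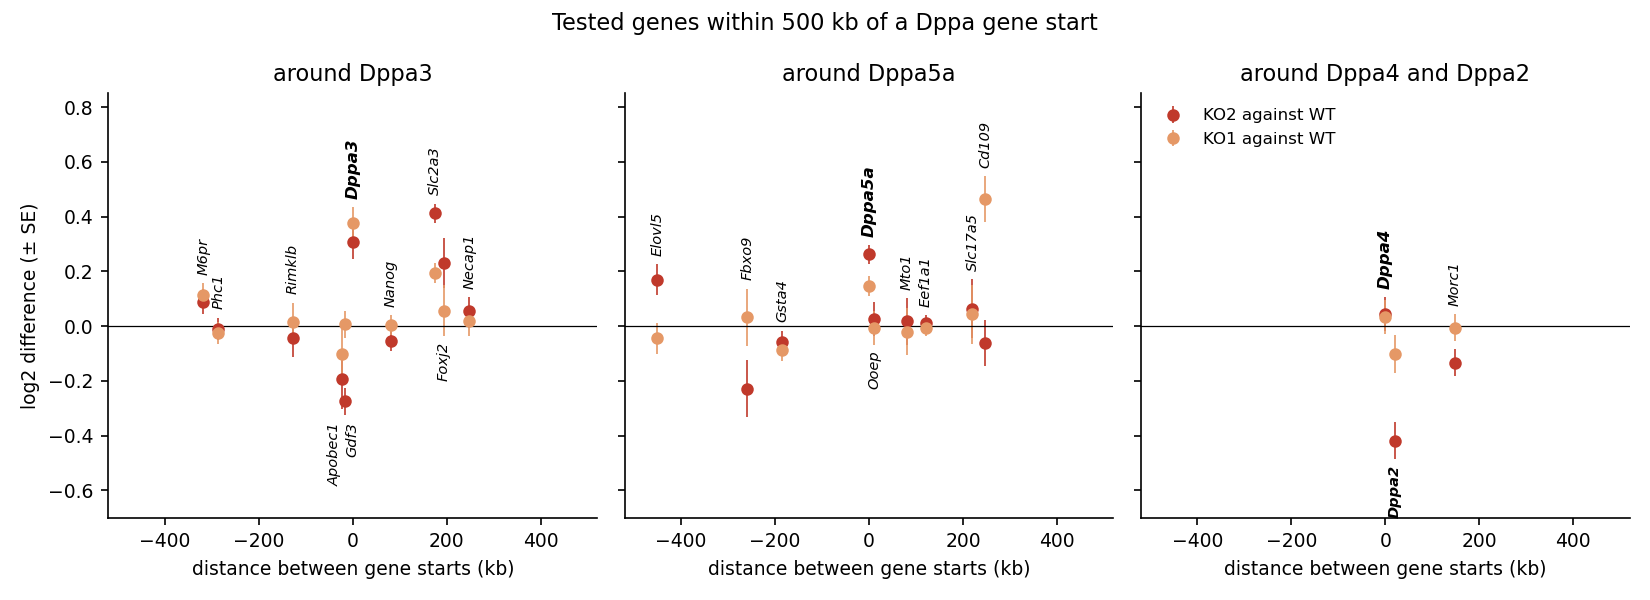
Log2 difference (vertical axis, bars ± SE) of the Dppa genes (bold) and of the tested genes within 500 kb, by distance in kb between gene starts, in KO2 against WT and KO1 against WT. Gdf3 lies below 0 in KO2 cells while Dppa3 and Slc2a3 lie above it, and Ooep beside Dppa5a lies near 0 in both lines.

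Genes known to depend on Dppa2 and Dppa4 were barely present. Of 29 two-cell genes, which are on for a short time at zygotic genome activation, 20 had a row, and all 20 had a mean under 10 normalised counts, 9 of them under 1. Dux itself, which Dppa2 and Dppa4 act on directly, is not analysed here. The summed level of the 20 genes was 27.1, 32.4 and 36.0 in KO2 libraries, 38.3, 32.9 and 38.0 in KO1 libraries, and 24.0, 24.5 and 24.6 in WT libraries. The sums rest on 229 to 350 reads in KO2 libraries, 313 to 397 in KO1 libraries and 210 to 232 in WT libraries. All 6 knockout sums lay above the WT sums. Of all tested genes, 18.7% lay above WT without overlap in KO2 libraries and 13% in KO1 libraries, so nothing is read from this. A link of these sums to the level of Dppa2 was not tested.

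None of these genes passed the filter on low values, so they were fitted once without it, over 15526 genes. In KO2 against WT 1 of 20 rose and 0 fell, where 7.44% of all genes were called higher. An unadjusted p under 0.05 was found for 4 of 20, and with the filter 3174 of the 10238 tested genes had one. The gene that rose was Zscan4c, a two-cell zinc finger gene, at 2.74 ± 0.240 in KO2 cells, 1.94 ± 0.605 in KO1 cells and 0.830 ± 0.181 in WT cells (SD, n = 3 each), with a log2 difference of 1.03 (limma, adjusted p = 0.0017). For KO1 against WT limma called 0 of 20, where 0.728% of all genes were called. An unadjusted p under 0.05 was found for 4 of 20 there, and with the filter 1304 of the 10238 tested genes had one. The number of all genes with such a p without the filter is not given here, so nothing is read from these counts. Neither edgeR nor DESeq2 was run without the filter. The Zscan4 and Usp17l genes are families of near-identical copies, so their single values are uncertain.

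Another list held 3 genes described as depending on Dppa2 and Dppa4, Syce1, Mael and Nkx2-5, of which only Syce1 passed the filter. Syce1, a synaptonemal complex gene, had 7.92, 9.58 and 7.50 normalised read counts in KO2 libraries, 10.4, 13.2 and 9.0 in KO1 libraries and 11.4, 14.8 and 12.2 in WT libraries. It fell by 0.56 ± 0.16 in KO2 against WT (limma, adjusted p = 0.0093), where 7.51% of all tested genes were called lower. Syce1 had -0.22 ± 0.16 in KO1 against WT (limma, adjusted p = 0.61) and -0.34 ± 0.16 in KO2 against KO1 (limma, adjusted p = 0.17). The call in KO2 was lost without WT replicate 2, at adjusted p = 0.072. Mael averaged 1.87 ± 0.419 in KO2 cells and 0.959 ± 0.245 in WT cells, and Nkx2-5 averaged 1.24 ± 0.257 in KO2 cells and 0.518 ± 0.145 in WT cells. Both were higher in KO2 cells, the direction opposite to Syce1, at levels under the filter.

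Maintenance DNA methylation is the step that Dppa3 holds back. Of its 6 listed genes, 0 rose and 1 fell in KO2 against WT (limma), where 7.51% of all tested genes were called lower. By edgeR 3 of the 6 were lower and by DESeq2 2, where they called 932 and 831 of all tested genes lower. Without KO2 replicate 3 the number that fell was 3. The fit of KO1 against WT called 0 of 6 (limma), where 1.06% of all tested genes were called, and edgeR and DESeq2 also called 0. Of the 6, 0 had an unadjusted p under 0.05 there, beside 1304 of the 10238 tested genes. Uhrf1, the methylation reader that Dppa3 binds, averaged 1609 ± 26.9 in KO2 cells, 1595 ± 20.8 in KO1 cells and 1584 ± 61.9 in WT cells, with limma adjusted p = 0.71 and 0.95 for the lines against WT. Dnmt1, the maintenance methyltransferase, averaged 1035 ± 22.2 in KO2 cells, 1028 ± 19.7 in KO1 cells and 1048 ± 15.7 in WT cells. The gene that fell was Xpo1, the nuclear exporter that carries Uhrf1 out with Dppa3, by 0.17 ± 0.05 (limma, adjusted p = 0.0077), and it lost its call in 4 of 21 alternatives, without WT replicate 2, KO2 replicate 1 or KO2 replicate 2 and with plain moderation.

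Of 8 genes that add new DNA methylation or remove it, 0 rose and 2 fell in KO2 against WT, where 11% of all tested genes were called higher and 7.51% lower. The number that fell was 3 with edgeR and with DESeq2 and 1 with plain moderation, where these called 932, 831 and 455 of all tested genes lower, in that order. Dnmt3b, a de novo methyltransferase, fell to 189 ± 1.73 in KO2 cells, with 228 ± 1.86 in KO1 cells and 245 ± 4.86 in WT cells, a log2 difference of -0.38 ± 0.05 in KO2 against WT (limma, adjusted p = 6.1e-08). Tet2, which oxidises methylcytosine, fell by 0.17 ± 0.04 (limma, adjusted p = 0.0026). Against WT, KO1 had 0 of the 8 called by limma, where 1.06% of all tested genes were called, and no alternative called any. Of the 8, 4 had an unadjusted p under 0.05 there, beside 1304 of the 10238 tested genes. In KO2 against KO1 3 fell, Dnmt3b, Tet2 and Tet1, and Tet1 lost its call without KO1 replicate 2, KO1 replicate 3 or KO2 replicate 2. The median of the 8 genes was -0.08 in KO2 against WT, beside 0.02 for all tested genes. Among 22 germline genes that DNA methylation keeps silent 5 were tested, and in KO2 against WT 1 rose (Tuba3a, 0.27 ± 0.06, limma adjusted p = 0.001) and 1 fell (Rnf17, -0.27 ± 0.07, limma adjusted p = 0.004; 0.051 without WT replicate 2), where 11% of all tested genes were called higher and 7.51% lower. Without KO2 replicate 1 the number that rose was 2.

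A list of the subcortical maternal complex and other KH-domain genes gave no call with all 9 libraries and the filter on low values. Of this list only Ooep lay within 500 kb of Dppa5a. Of 10 genes 8 had a row and 4 were tested, Ooep, Khdc3, Tle6 and Zbed3. An unadjusted p under 0.05 was found for 1 in KO2 against WT, 1 in KO1 against WT and 0 in KO2 against KO1. Of all 10238 tested genes 3174, 1304 and 2494 had one, in that order. Each of limma, edgeR and DESeq2 called 0 of the 4 in each comparison. In KO2 against WT 1 was called higher without KO2 replicate 3 or WT replicate 1, and in KO2 against KO1 1 gene of the list was called lower without the filter on low values. Khdc3 (Filia), the most abundant of them, averaged 365 ± 2.66 in KO2 cells, 377 ± 23.3 in KO1 cells and 348 ± 7.05 in WT cells.

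Set among 24 other pluripotency and ES cell genes, Dppa2 lay below all of them in KO2 against WT. Dppa2 was picked on these contrasts, so its place is a description and nothing is read from it. Of the 24 genes 2 rose and 6 fell in KO2 against WT, with a median log2 difference of -0.06 beside 0.02 for all tested genes, of which 11% were called higher and 7.51% lower. Without WT replicate 1 the number that rose was 4. Tdgf1 (Cripto), a Nodal co-receptor, rose by 0.39 ± 0.04 (limma, adjusted p = 5.5e-10) and Fgf4, a growth factor, by 0.26 ± 0.04 (limma, adjusted p = 5.3e-06). Those that fell were L1td1, an RNA-binding protein (-0.29 ± 0.04, limma adjusted p = 2.5e-07), Gdf3, Zfp42, Sall4, Tbx3 and Tdh. Pou5f1 averaged 2400.4 ± 61.5 in KO2 cells, 2317 ± 46.8 in KO1 cells and 2362 ± 99.99 in WT cells, and had no call. Between KO1 and WT limma called 0 of 24, where 1.06% of all tested genes were called. Of the 24, 8 had an unadjusted p under 0.05, beside 1304 of the 10238 tested genes. By contrast edgeR and DESeq2 each called 3 lower, where they called 48 and 43 of all tested genes lower.

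In KO2 against KO1 4 of the 24 genes rose and 4 fell, where 4.71% of all tested genes were called higher and 5.22% lower. The number that rose was 2 without KO2 replicate 2 and 1 without KO1 replicate 1 or KO1 replicate 2. The number that fell was 2 without KO2 replicate 1, 7 without KO2 replicate 3, 2 without KO1 replicate 2 and 1 without KO1 replicate 3. Dppa3 in KO1 against WT, at 0.38, lay above all 24, the highest of which was Fgf4 at 0.13 ± 0.04 (limma, adjusted p = 0.12). Dppa3 too was picked on these contrasts, so nothing is read from its place.

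**Figure D4:**
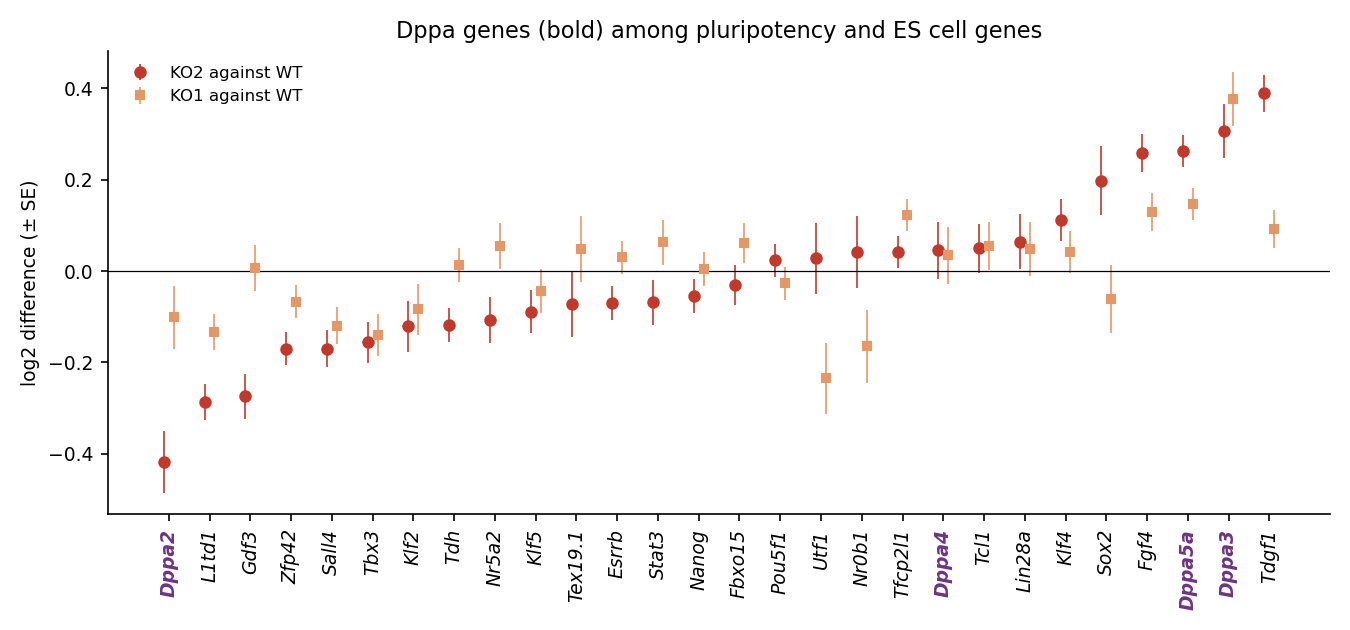
Log2 difference (vertical axis, bars ± SE) of the Dppa genes (bold) and 24 pluripotency and ES cell genes in KO2 against WT (circles) and KO1 against WT (squares), in order of the KO2 value. Dppa2 stands at the low end at -0.42, Dppa5a and Dppa3 stand near the high end at 0.26 and 0.31, and Dppa4 stands at 0.05.

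Some markers of other cells rose in KO2 cells. Of 14 fibroblast markers 7 had a row and 3 were tested; Pdgfrb, Fbln2 and Col5a1 rose in KO2 against WT, where 11% of all tested genes were called higher. The summed level of the 7 was 159 to 162 in KO2 libraries, 124 to 129 in KO1 libraries and 120 to 124 in WT libraries. Col3a1, Postn, Dcn and Lum, defining fibroblast genes, had no row. Of the 7, Col1a1 averaged 1.60 ± 0.410 in KO2 cells and 1.94 ± 0.474 in WT cells, and Col1a2 averaged 3.14 ± 0.311 in KO2 cells and 3.94 ± 0.394 in WT cells. Of 10 primitive endoderm markers 4 had a row, with sums of 33.9 to 39.9 in KO2 libraries, 26.3 to 31.6 in KO1 libraries and 26.5 to 28.4 in WT libraries, and Gata4, the 1 tested, rose in KO2 against WT by 0.64 (limma, adjusted p = 0.00033). Dab2 of that list averaged 3.42 ± 0.696 in KO2 cells and 5.90 ± 0.741 in WT cells, Pdgfra averaged 1.18 ± 0.615 in KO2 cells and 1.94 ± 0.117 in WT cells, and without the filter on low values 2 of the list were called higher and 1 lower. Among primed-state genes, Otx2 rose in KO2 against WT and Foxd3 fell in KO1 against WT. Foxd3 lost its call without WT replicate 1 or 2 or KO1 replicate 1 or 2. Of 5 tested neural genes 1 rose and 4 fell in KO2 against WT, where 11% of all tested genes were called higher and 7.51% lower. In the KO1 line 2 neural genes fell, where 0.234% of all tested genes were called lower; 0 did without KO1 replicate 1, and 1 did without KO1 replicate 3 or any 1 of the WT libraries. Of 3 tested trophoblast genes limma called 0 in each comparison, and edgeR and DESeq2 also called 0. Their unadjusted p was under 0.05 for 0 in KO2 against WT, 2 in KO1 against WT and 1 in KO2 against KO1. Of all 10238 tested genes 3174, 1304 and 2494 had such a p, in that order. The part of any of these in the values of the Dppa genes was not tested.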

How the data were processed

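Poly-A RNA of mouse ES cells was sequenced as stranded TruSeq libraries with paired 50-base reads, per the labels' protocols. The build was GRCm38 and the tools named are HISAT2 and DESeq2, per the submitters' processing notes. How reads were counted, on which annotation and whether by strand is not given in the sources used here.

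Deposited values are a signal, read counts per gene that the authors had scaled per library. All were whole multiples of the value of 1 read (100% within 0.05 reads), so whole reads were recovered for 15526 rows. Genes with a mean of at least 10 (10238) were tested with limma 3.58.1 in R 4.3.3 on log2(value + 1), with all 9 libraries, a trend and robust moderation. Calls are at an adjusted p under 0.05 (Benjamini-Hochberg, over all tested genes), and differences are on that log2 scale. The alternatives were edgeR 4.0.16 and DESeq2 1.42.0 on the recovered reads, other scalings, pseudocounts and filters, a replicate block, and leaving out each library. Positions came from GENCODE M21 by symbol (15272 rows, 98.4%).

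The members, lists and rules were chosen with earlier results of these data known. Named were neighbours called in any comparison and the nearest tested one on each side, the 3 genes most like each member, and up to 4 called genes of a list, by adjusted p. Uhrf1, Dnmt1, Khdc3, Pou5f1, Zscan4c, Mael and the other pluripotency genes that fell were named after their values were seen. The primed-state list is not reported here in full.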

Additional observations from a re-analysis of the deposited data

Results flagged for a closer look

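For 14 of 29 genes named as neighbours or list members, the difference from WT was not the same in both knockout lines. This is by the test of KO2 against KO1 itself (limma, adjusted over all tested genes). Many of the 29 had been named for a call in any comparison, this one included, so nothing is read from the count. Over all tested genes 1016 (9.92%) were called in KO2 against KO1. The log2 difference of KO2 against KO1 was below 0 for Cd109 (-0.53 ± 0.08 SE, adjusted p = 1e-05), Tubb3 (-0.53 ± 0.07, adjusted p = 4.2e-07), Gdf3 (-0.28 ± 0.05, adjusted p = 7.4e-05), Dnmt3b (-0.27 ± 0.05, adjusted p = 1e-04), Tet2 (-0.23 ± 0.04, adjusted p = 0.00016), L1td1 (-0.16 ± 0.04, adjusted p = 0.0063) and Tet1 (-0.15 ± 0.04, adjusted p = 0.013). It was above 0 for Gata4 (0.55 ± 0.13, adjusted p = 0.0036), Col5a1 (0.42 ± 0.07, adjusted p = 1.5e-05), Tdgf1 (0.30 ± 0.04, adjusted p = 1e-06), Otx2 (0.28 ± 0.07, adjusted p = 0.0057), Slc2a3 (0.22 ± 0.04, adjusted p = 1.9e-05), Elovl5 (0.21 ± 0.06, adjusted p = 0.0094) and Fgf4 (0.13 ± 0.04, adjusted p = 0.034). With 1 library left out, L1td1 lost its call without KO1 replicate 3. Tet1 lost it without KO2 replicate 2, KO1 replicate 2 or KO1 replicate 3, and Elovl5 without KO2 replicate 3, KO1 replicate 2 or KO1 replicate 3. Fgf4 lost it without KO2 replicate 3 or without any 1 of the KO1 libraries. The KO2 and KO1 lines are 1 edited line each, so a difference between the lines and a difference between cultures cannot be told apart.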

How the results depend on the processing

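The differences of Dppa2 and Dppa3 kept their sign in all 21 alternatives in each comparison. Dppa5a kept its sign against WT, and under quantile normalisation it had 0.10 in KO2 against WT, 0.10 in KO1 against WT and 0 in KO2 against KO1. With 1 library left out, KO2 against WT ran between -0.49 and -0.37 for Dppa2, 0.23 and 0.36 for Dppa3, -0.0035 and 0.10 for Dppa4, and 0.23 and 0.29 for Dppa5a. KO1 against WT ran between -0.17 (without WT replicate 3) and -0.05 (without WT replicate 2) for Dppa2, 0.34 and 0.42 for Dppa3, -0.0016 and 0.06 for Dppa4, and 0.12 and 0.17 for Dppa5a.

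Over all genes, 1892 were called in KO2 against WT, 109 in KO1 against WT (85 higher, 24 lower) and 1016 in KO2 against KO1. Plain moderation gave 1151 for KO2 against WT, 20 for KO1 against WT and 413 for KO2 against KO1. With 1 library left out the counts ran between 1324 and 1808 in KO2 against WT, 50 and 166 in KO1 against WT, and 521 and 1207 in KO2 against KO1. The KO1 against WT count was 166 without KO2 replicate 3, 54 without KO1 replicate 1, 65 without WT replicate 3 and 50 without KO1 replicate 2, and that of KO2 against KO1 was 521 without KO1 replicate 2 and 618 without KO1 replicate 3. Median-ratio scaling split the KO1 against WT calls into 66 higher and 41 lower, and quantile normalisation into 65 higher and 38 lower. The KO2 against WT calls were 1123 higher and 769 lower. They were 985 and 940 with median-ratio scaling, 929 and 916 with quantile normalisation, and 950 and 932 with edgeR. The shares called higher and lower that stand beside the lists therefore hold for the authors' scaling. The cause was not tested. For the 29 other named genes, 55 of the recomputed calls were lost, 13 were gained and 0 reversed, and 1738 stayed on their side.

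With the replicate block the counts were 1719 in KO2 against WT, 89 in KO1 against WT and 867 in KO2 against KO1, and the differences of the Dppa genes were the same by construction. Libraries of the same number correlated between -0.13 and 0.03 and 0 of 9 correlated best with their own number, so the numbers were not taken as pairs. Dppa2 rests on the fewest reads, 594 to 972 per library.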
